A study of Rattus norvegicus with 3 samples.

Results

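The platelet-derived growth factor (PDGF) genes and the growth factor receptor genes of smooth muscle were examined for sites of HA-tagged TET2 in rat aortic smooth muscle cells (SMC). The group held 10 genes, 5 ligand genes (Pdgfa, Pdgfb, Pdgfc, Pdgfd and Fgf2) and 5 receptor genes (Pdgfra, Pdgfrb, Fgfr1, Egfr and Igf1r). Both peak lists together name 14740 genes as nearest gene. A peak was counted for a gene when the authors' table named that gene as the nearest one, or when the peak lay in an exon or intron of it. By this rule 32 of 25521 Control peaks and 12 of 9523 Myocd-LSD1 peaks belonged to the group. The sites were mapped by CUT&Tag, in which an antibody against the HA tag directs a transposase to cut the DNA around the bound protein. All cells received adenovirus carrying HA-TET2 (Adv-HA-TET2) for 24 h, so the protein assayed was overexpressed and tagged. Each assay used 500000 cells. There were 2 samples of control SMC, whose cell line is given as WT, and 1 sample of the line Myocd-LSD1, named for myocardin and the histone demethylase LSD1; the labels describe neither construct nor clone. Each group was represented by 1 peak list, and both Control samples name the same one. No value below therefore has a replicate error, and no test between the lines was made.

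PDGF ligands act as dimers on the receptor tyrosine kinases PDGFRα and PDGFRβ and are classical mitogens and attractants of vascular smooth muscle; PDGF-BB is widely used in culture to drive these cells away from the contractile state. FGF2, the epidermal growth factor receptor and the insulin-like growth factor 1 receptor feed into the same Ras, ERK and AKT routes. TET2 oxidises 5-methylcytosine in DNA, which in mammals stands mostly in CG dinucleotides. No sample lacked the tagged protein, so signal that does not depend on it could not be set apart. A peak marks enriched signal in the assay for the tagged protein and does not measure expression of the gene. For the same reason the label of the cells could not be checked from the lists: of 8 smooth muscle marker genes 5 carried a peak in Control and 0 in Myocd-LSD1, of 4 endothelial markers 4 and 1, of 3 fibroblast markers 2 and 1, and of 3 macrophage markers 1 and 0, beside 47.6% and 28.4% of all named protein-coding genes.

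Promoter sequence was used to show how many CG dinucleotides lie before the start sites of these genes. RefSeq promoter windows of the rat assembly GRCr8 were matched for 8 of the 10 genes by symbol, all but Pdgfrb and Fgfr1. The 250 bases before the start site are printed for the 4 genes whose window lies wholly before the annotated gene, 5′ to 3′ on the strand of the gene, with each CG in capitals. They are at chr12:20759116-20759365 (plus strand) for Pdgfa, chr7:113438344-113438593 (minus strand) for Pdgfb, chr2:122164204-122164453 (plus strand) for Fgf2 and chr14:95378376-95378625 (plus strand) for Egfr. These coordinates are of GRCr8, while all peak coordinates below are of rn6.
Pdgfa: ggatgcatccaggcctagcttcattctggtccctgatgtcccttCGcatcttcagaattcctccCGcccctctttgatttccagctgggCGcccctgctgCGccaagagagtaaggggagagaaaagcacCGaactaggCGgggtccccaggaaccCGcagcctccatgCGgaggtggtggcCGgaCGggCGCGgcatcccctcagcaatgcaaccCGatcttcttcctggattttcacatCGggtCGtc
Pdgfb: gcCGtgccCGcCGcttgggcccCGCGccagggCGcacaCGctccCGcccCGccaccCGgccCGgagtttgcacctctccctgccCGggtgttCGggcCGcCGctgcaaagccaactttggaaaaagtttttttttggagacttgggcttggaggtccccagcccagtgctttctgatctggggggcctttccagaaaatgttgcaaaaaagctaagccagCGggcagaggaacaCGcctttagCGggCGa
Fgf2: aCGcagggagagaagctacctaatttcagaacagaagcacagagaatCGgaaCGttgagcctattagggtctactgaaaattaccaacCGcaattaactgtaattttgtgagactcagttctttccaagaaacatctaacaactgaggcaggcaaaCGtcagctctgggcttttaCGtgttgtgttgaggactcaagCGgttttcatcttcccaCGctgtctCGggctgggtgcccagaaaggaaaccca
Egfr: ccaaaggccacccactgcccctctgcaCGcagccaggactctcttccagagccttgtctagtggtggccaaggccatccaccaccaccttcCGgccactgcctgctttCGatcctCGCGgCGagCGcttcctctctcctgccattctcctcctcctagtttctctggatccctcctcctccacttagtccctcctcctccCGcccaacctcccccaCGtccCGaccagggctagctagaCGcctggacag
The windows held 15 CGs for Pdgfa, 19 for Pdgfb, 9 for Fgf2 and 11 for Egfr. Among the 4 windows not printed, Igf1r had 45, Pdgfc 12, Pdgfd 10 and Pdgfra 4. These windows do not lie wholly before the annotated gene, so their counts are not of upstream sequence alone. Over 17179 named protein-coding genes the median was 11 (interquartile range 3 to 20), which places Igf1r at percentile 99.6 and Pdgfra at percentile 31.1. Genes with a Control peak lying on a start site had a median of 18, those with such a Myocd-LSD1 peak 19, and genes with no promoter peak in either list 6. Of the 8 genes matched, Igf1r was also the one with a promoter peak within 1 kb of the start site, although that peak lies upstream of the window. The AP-1 motif TGANTCA was present in the window of Pdgfra and in 5.66% of all windows. The E-box motif CANNTG was present in 5 of the 8 windows (Pdgfa, Pdgfd, Fgf2, Pdgfra and Igf1r) and in 61.7% of all windows, and the TEAD motif GGAATG in 0 of 8 and 10.8%. Both strands were searched, and matches were counted for each motif separately where they overlapped.

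Most of the genes carried HA-TET2 peaks in control SMC, chiefly in introns, and fewer did in Myocd-LSD1 SMC. In Control 9 of the 10 genes had a peak, against 47.6% of 20950 named protein-coding genes, and in Myocd-LSD1 6 of 10, against 28.4%. These shares are not of like genes. Some members are long, and 62.4% of named genes of at least 200 kb had a Control peak. All 10 members matched by name, whereas a gene whose name in the lists had no match counts as without a peak. The part of gene length and name matching was not tested. The gene without a Control peak was Pdgfd; those without a Myocd-LSD1 peak were Pdgfa, Fgf2, Pdgfra and Egfr. In both lists 5 genes had a peak (Pdgfb, Pdgfc, Pdgfrb, Fgfr1 and Igf1r), and over all genes 50.5% of those with a Control peak were also in the Myocd-LSD1 list, and 84.6% of those with a Myocd-LSD1 peak were also in the Control list. A peak is called shared below when at least 1 bp of it overlaps a peak of the other list. Of the 32 Control peaks 6 were shared (18.8%, exact Clopper-Pearson 95% interval 7.21 to 36.4), close to the 22.0% of all Control peaks. Of the 12 Myocd-LSD1 peaks 7 were shared (58.3%, 27.7 to 84.8), close to the 59.4% of all Myocd-LSD1 peaks. These intervals cover counting error only, and peaks of 1 gene are not independent of each other. The read totals behind the lists are unknown. The lowest local background under the peaks, solved from the deposited fold and p-value, was 0.175 fragments for the Control list, against 0.0633 for the other list. The part of this 2.77-fold difference in the missing Myocd-LSD1 peaks was not tested.

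**Figure D1:**
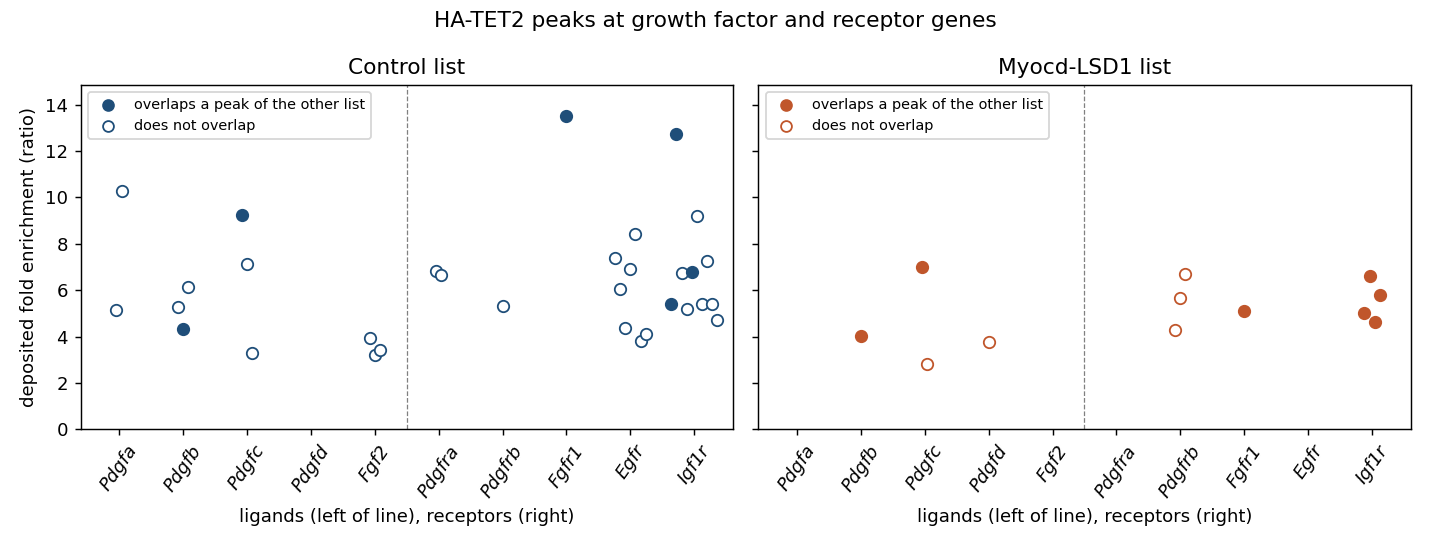
Deposited fold enrichment (ratio, vertical axis) of each HA-TET2 peak of the 10 genes (horizontal axis), with 1 panel per peak list; filled points overlap a peak of the other list and open points do not. The 2 highest points, Fgfr1 at 13.5 and Igf1r at 12.8 in Control, are shared, while all 7 Egfr peaks are open; fold values are to be read within a list only.

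Among the PDGF ligands, Pdgfa and Pdgfb had peaks around short genes and Pdgfc within a long one. Pdgfa, which encodes the PDGF A chain, had 2 peaks in Control and 0 in Myocd-LSD1. Its promoter peak lay inside the gene, 1774 bp after the start site (chromosome 12, 17738061 to 17738681), with a deposited fold enrichment of 5.15 on 21 fragments. Such peaks, between 1 and 2 kb from a start site and with more than 20 fragments, were shared at 41.1%. An intergenic Pdgfa peak 38385 bp after the start site (17774672 to 17775521) had a fold of 10.3 on 26 fragments, higher than 95.6% of the list. The fold is the authors' own value for each peak and serves only to rank peaks within a list. The number of fragments at the highest point of the peak was recovered from the deposited fold and p-value. Intergenic Control peaks with more than 20 fragments were shared at 63.8%, so the Pdgfa intergenic peak belonged to the smaller part of its class that had no Myocd-LSD1 counterpart. The nearest Myocd-LSD1 peak lay 71934 bp away from it.

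Pdgfb encodes the B chain, which binds both PDGF receptors. Its 3 Control peaks all lay upstream of the gene, in intron 1 of 2 of LOC108351514, at 10329, 11764 and 22595 bp before the Pdgfb start site. The peak nearest to the gene (chromosome 7, 121243421 to 121243705) had a fold of 5.29 on 10 fragments, the middle one (121244856 to 121245133) 4.35 on 8 and the farthest (121255687 to 121255887) 6.13 on 7. The middle peak, the weakest of the 3 by fold, was the one shared. Its Myocd-LSD1 counterpart (121244923 to 121245239) had a fold of 4.04 on 4 fragments, and the summits were 68 bp apart. Over the whole list, intron Control peaks of 8 to 12 fragments were shared at 15.0% and those of 5 to 7 fragments at 8.34%. No peak of either list lay within the Pdgfb gene itself.

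Pdgfc, which encodes a ligand that must be cleaved before it binds PDGFRα, had 3 Control and 2 Myocd-LSD1 peaks. A peak in intron 1 of 5, 19416 bp after the start site (chromosome 2, 179971643 to 179972076), had a Control fold of 9.22 on 15 fragments and was shared. The matching Myocd-LSD1 peak (179971789 to 179972132) had a fold of 6.99 on 8 fragments, the highest fold of the 12 Myocd-LSD1 peaks of the group. A second Control peak of the same intron (180005142 to 180005485, fold 7.15, 9 fragments) was not shared. Intron Control peaks of 13 to 20 fragments were shared at 27.8% and those of 8 to 12 fragments at 15.0%. Far downstream of the gene each list had 1 weak intergenic peak, of 3 fragments in Control (180278262 to 180278472) and 2 in Myocd-LSD1 (180249442 to 180249626). These lay 28636 bp apart. Intergenic peaks of 1 to 4 fragments were shared at 4.32% in Control and 25.5% in Myocd-LSD1.

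Pdgfd encodes the second PDGF ligand that needs cleavage, which acts mainly through PDGFRβ. It was the one gene with a Myocd-LSD1 peak and no Control peak, although the gene spans 233943 bp in GRCr8 and 62.4% of the 1017 named genes of at least 200 kb had a Control peak. The Myocd-LSD1 peak lay in intron 1 of 6 (chromosome 8, 4575194 to 4575449), rested on 3 fragments and had a fold of 3.76. The table assigns it to LOC108351647, so that a count by nearest gene alone finds no Pdgfd peak in either list. Intron peaks of 1 to 4 fragments in Myocd-LSD1 were shared at 29.1%.

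Fgf2, which encodes basic fibroblast growth factor, had 3 Control peaks in intron 1 of 2 and no Myocd-LSD1 peak. They lay 10779, 11326 and 31183 bp after the start site on chromosome 2 (124091851 to 124092158, 124092398 to 124092575 and 124112255 to 124112467). Their folds were 3.96, 3.22 and 3.40 on 4, 3 and 3 fragments, at or below percentile 12.8 of the Control list. Intron Control peaks of 1 to 4 fragments were shared at 2.98%, so that peaks like those of Fgf2 seldom had a Myocd-LSD1 counterpart.

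The PDGF receptor genes differed in their pattern of peaks. Pdgfra, the receptor for the A, B and C chains, had 2 peaks in Control and 0 in Myocd-LSD1, and no Myocd-LSD1 peak of any gene lay within 50 kb of it. One of its Control peaks lay in an exon given as 8 of 23 (chromosome 14, 35544341 to 35544760, fold 6.84, 11 fragments) and the other lay in intergenic DNA 21862 bp upstream (35602992 to 35603678, fold 6.65, 9 fragments). Exon Control peaks of 8 to 12 fragments were shared at 5.89%, and intergenic Control peaks of any strength at 18.9%.

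Pdgfrb encodes the receptor for the B and D chains and is a marker of mural cells. It had more peaks in Myocd-LSD1 than in Control, 3 against 1, as otherwise only Pdgfd did in the group, and none of them was shared. Counting the peaks of all genes, its span held 2 Control and 3 Myocd-LSD1 peaks, and the span with 50 kb to each side held 4 and 3. The Control peak lay in exon 5 of 24 (chromosome 18, 56386020 to 56386324) with a fold of 5.34 on 10 fragments. In Myocd-LSD1 a peak lay across the start site (56364597 to 56364764, fold 4.31, 4 fragments), the only peak of the group in either list to do so. The 2 others lay in intron 8 of 23 (56389097 to 56389255, fold 5.69, 7 fragments) and intron 11 of 23 (56392750 to 56392909, fold 6.72, 8 fragments). The Control exon peak and the Myocd-LSD1 peak in intron 8 were 2773 bp apart. The annotation assigns the exon peak and both intron peaks to LOC102555480, and a further Control peak inside the span of Pdgfrb (56376419 to 56376882, fold 3.83, 7 fragments) was classed as a promoter peak of LOC102555480 and was not counted. It overlapped no Myocd-LSD1 peak.

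Peaks like those of Pdgfrb in class and fragment number differed in how often they were shared. Myocd-LSD1 intron peaks of 8 to 12 fragments were shared at 91.0% and those of 5 to 7 fragments at 74.5%, so the 2 intron peaks of Pdgfrb belonged to the smaller parts of their classes. Of those at most 1 kb from a start site and on 1 to 4 fragments, as the Pdgfrb promoter peak was, 45.4% were shared. Peaks across a start site made up 11.7% of the Control list and 21.1% of the Myocd-LSD1 list.

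**Figure D2:**
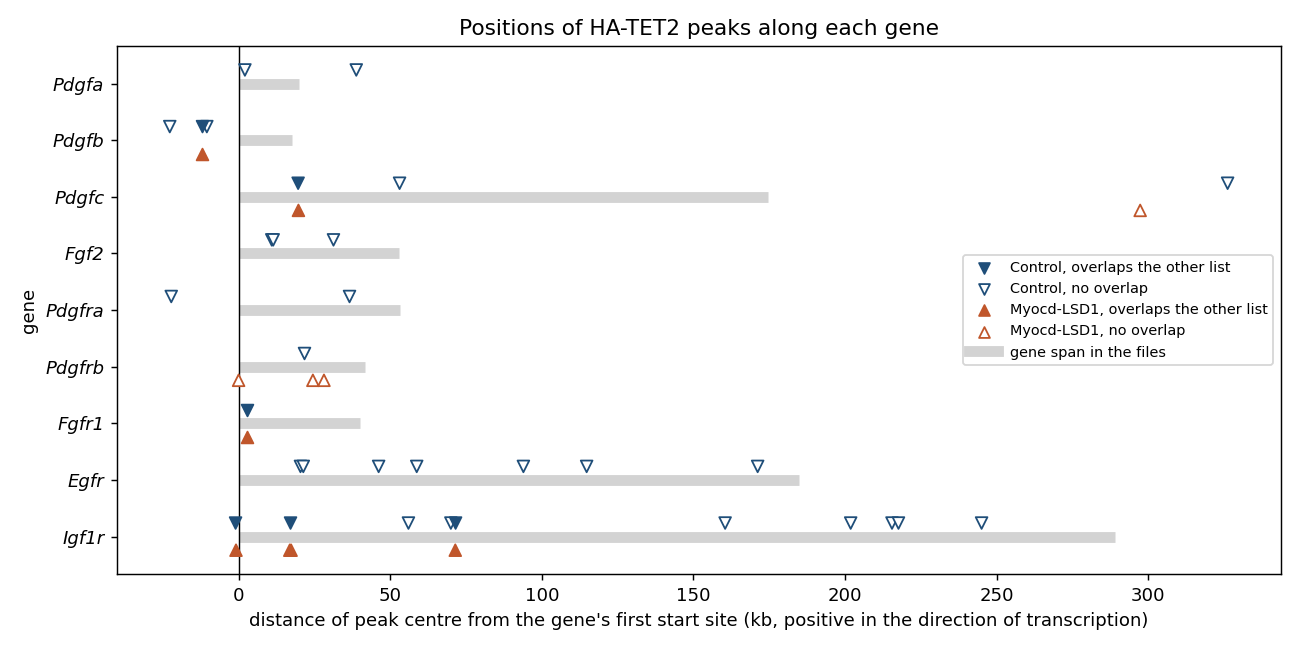
Distance of each peak centre from the first annotated start site of its gene (kb, horizontal axis, positive in the direction of transcription), with grey bars for the gene span in the files; downward triangles are Control peaks, upward triangles Myocd-LSD1 peaks, and filled ones overlap the other list. Pdgfrb alone has a peak across its start site, Egfr has 7 open Control peaks, and all 4 Myocd-LSD1 peaks of Igf1r are filled; Pdgfd is not drawn, because the lists do not give its start site.

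Among the other receptors, Fgfr1 and Igf1r had shared peaks and Egfr had none. Fgfr1, a receptor for FGF2, had a single peak in each list at the same place. The Control peak (chromosome 16, 71303059 to 71304166) lay inside the gene, 2133 bp after the start site, and was classed as a promoter peak of 2 to 3 kb. Its fold of 13.5 on 39 fragments was the highest of the 32 Control peaks and above 99.2% of that list. The Myocd-LSD1 peak (71303293 to 71303507) lay wholly within it, 215 bp against 1108 bp wide, with a fold of 5.09 on 5 fragments, and the summits were 1 bp apart. Control promoter peaks between 2 and 3 kb with more than 20 fragments were shared at 28.8%.

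Egfr, the receptor for EGF and related ligands, had 7 peaks in Control and 0 in Myocd-LSD1. Of these, 5 lay in intron 1 of 27 between 99939705 and 100034403 on chromosome 14, with folds of 7.41, 6.06, 6.93, 8.44 and 3.80 in the order of their positions, on 11, 9, 10, 14 and 4 fragments. The other two were a peak in a 5′ untranslated region (99965454 to 99965878, fold 4.35, 5 fragments) and one in exon 21 of 28 (100090467 to 100090833, fold 4.13, 4 fragments). In the Egfr span and 50 kb to each side the Control list had 12 peaks, counting those of other genes, and the Myocd-LSD1 list had 0. The Myocd-LSD1 peaks nearest to any Egfr peak lay 78096 to 190570 bp away. Intron Control peaks of 8 to 12 fragments, the range of 3 of the Egfr peaks, were shared at 15.0%, and those of 13 to 20 fragments at 27.8%. In both ranges most Control peaks thus had no Myocd-LSD1 counterpart.

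Igf1r, the receptor for insulin-like growth factor 1, had the most peaks, 10 in Control and 4 in Myocd-LSD1. Of 9966 named genes with a Control peak 144 (1.44%) had at least 10, and Igf1r spans 288878 bp in GRCr8. A promoter peak 789 bp before the start site (chromosome 1, 128923719 to 128924132, fold 5.40, 7 fragments) was shared with a Myocd-LSD1 peak (128923876 to 128924259, fold 5.02, 5 fragments), with summits 329 bp apart. Control peaks of this class and range (5 to 7 fragments) were shared at 31.2%. In intron 1 of 20, 16564 bp after the start site, a Control peak of 1123 bp (128941487 to 128942609) rested on 84 fragments, the most of any peak in the group, and had a fold of 12.8. It held 2 Myocd-LSD1 peaks, at 128941638 to 128941957 (fold 6.63, 9 fragments) and 128942160 to 128942317 (fold 4.64, 6 fragments). Comparable intron peaks with more than 20 fragments were shared at 48.7%.

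The third shared Igf1r site lay in intron 2 of 20 (128996359 to 128996599, fold 6.80, 14 fragments). Its Myocd-LSD1 peak (128996214 to 128996541) had a fold of 5.82 on 6 fragments and a summit 2 bp away. The other 7 Control peaks of Igf1r, with folds from 4.73 to 9.18 on 7 to 20 fragments, were not shared. Of these, 5 lay in the part of the gene from 129085237 to 129170149 (introns 2 and 10 and exon 3), where the table names Pgpep1l as the nearest gene. Thus each of the 4 Myocd-LSD1 peaks lay centred within 71.5 kb of the Igf1r start site, while Control peaks reached 245 kb into the gene. Control peaks like the 7 unshared ones in class and fragment range were shared at 8.34% to 27.8%. Most such peaks thus had no Myocd-LSD1 counterpart anywhere in the list.

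Shared Control peaks of the group had higher median strength than the others, as over the whole list. The 6 shared peaks had a median fold of 8.01 and a median of 14.5 fragments (range 7 to 84), and the 26 others a median fold of 5.42 and 9.5 fragments (3 to 26). Over all Control peaks the medians were 6.69 and 11 for shared peaks and 4.98 and 7 for the rest. None of the 6 peaks with 1 to 4 fragments was shared, 1 of 4 with 5 to 7, 1 of 11 with 8 to 12, 2 of 7 with 13 to 20, and 2 of 4 with more than 20. The genome-wide shares in these ranges were 6.56%, 14.1%, 24.7%, 38.0% and 52.9%. When each of the 32 peaks was given the share of all Control peaks of its class and fragment range, the mean was 18.7%, beside the 18.8% found. None of the 26 unshared Control peaks had a Myocd-LSD1 peak within 1 kb; the nearest were 1144 bp (Igf1r, intron 2) and 1218 bp (Pdgfb) away.

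**Figure D3:**
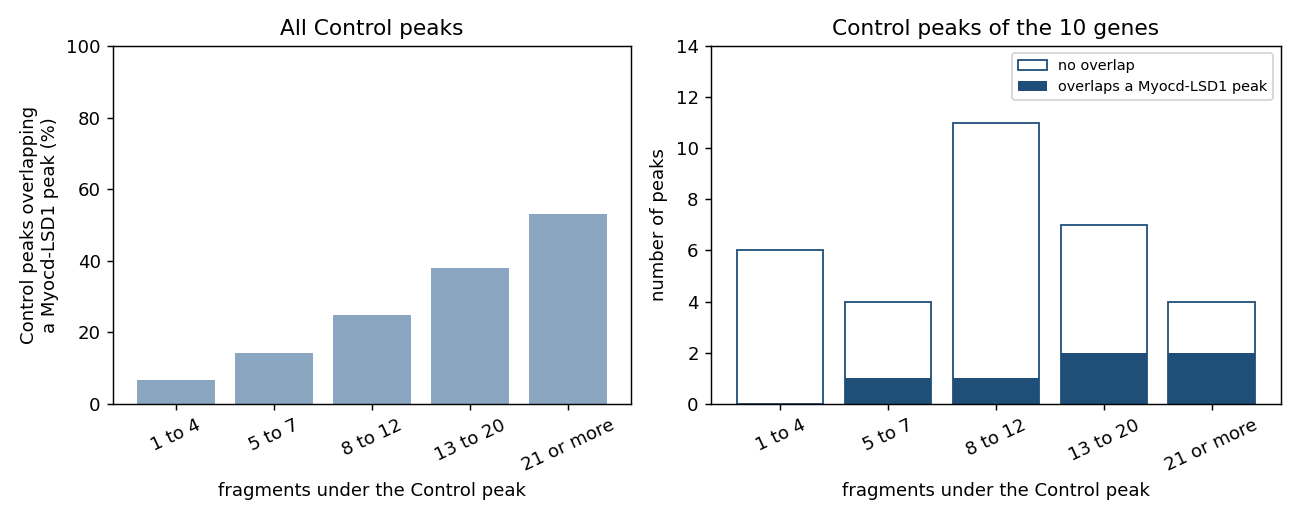
Left, share of all Control peaks that overlap a Myocd-LSD1 peak (%, vertical axis) by the number of fragments under the Control peak; right, number of Control peaks of the 10 genes in the same ranges, filled where they overlap. The genome-wide share climbs from 6.56% to 52.9%, and of the 10-gene peaks 0 of 6 in the lowest range and 2 of 4 in the highest overlap.

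Introns held most peaks of the group. Of the 32 Control peaks 21 lay in introns (65.6%), against 29.8% of all Control peaks, and of the 12 Myocd-LSD1 peaks 8 did (66.7%), against 23.7%. Of the 21 intron peaks in Control 4 were shared, beside 14.4% of all intron peaks. Of the 18 Control peaks in an intron of the gene itself, 11 were in intron 1 (61.1%), in Egfr, Fgf2, Pdgfc and Igf1r, against 28.8% of all intron peaks. In Myocd-LSD1 4 of 7 were, against 29.7%. Egfr, with most of its 7 Control peaks in intron 1, and Fgf2, with all 3 in intron 1 of 2, weigh heavily on the Control share. Egfr, Fgf2, Pdgfc and Igf1r lie on the plus strand. The shares over all intron peaks pool both strands and introns of any host gene, so they need not be shares of first introns. Counting rules that include a gene as host favour introns and exons over intergenic sites, so the shares of introns are descriptions. Promoter peaks of 3 kb to each side were present at 3 genes in each list, Pdgfa, Fgfr1 and Igf1r in Control and Pdgfrb, Fgfr1 and Igf1r in Myocd-LSD1, against 27.3% and 16.9% of named genes. Exons held 4 Control peaks, in Egfr, Pdgfra, Pdgfrb and Igf1r, of which none was shared. That was 12.5% of the group's Control peaks, close to the 10.7% of all Control peaks. No Myocd-LSD1 peak of the group lay in an exon, and only 3.5% of all Myocd-LSD1 peaks did. Over all exon peaks of Control 8.52% were shared.

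Ligands and receptors had similar shares of shared peaks. Among ligands 2 of 11 Control peaks were shared (18.2%, interval 2.28 to 51.8) and among receptors 4 of 21 (19.0%, 5.45 to 41.9). In Myocd-LSD1 2 of 4 ligand peaks and 5 of 8 receptor peaks were shared. The intervals are wide and do not show that the classes behave alike.

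The genes around these ligands and receptors in the same signalling routes were described from 5 lists of 133 genes, by nearest gene alone. Of these, 99 were found in the Control list (74.4%) and 62 in the Myocd-LSD1 list (46.6%), against 45.0% and 26.7% of all named protein-coding genes. Of their 276 Control peaks 53 were shared (19.2%), close to the 22.0% of all Control peaks. The 133 genes were not matched to the other genes in length or in distance to their neighbours. Among all named genes, one whose name in the lists had no match counts as without a peak. The part of these differences in the shares of genes with a peak was not tested.

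Of 26 other growth factor ligands 19 had a peak in control SMC and 11 in Myocd-LSD1 SMC. Of their 49 Control peaks 7 were shared (14.3%, interval 5.94 to 27.2), beside 22.0% of all Control peaks. The Fgf7 gene, for keratinocyte growth factor, had a shared promoter peak 1831 bp before its start site, with a fold of 7.49 in Control and 6.10 in Myocd-LSD1. Tgfa, for an EGF receptor ligand, had a shared intergenic peak 40696 bp upstream (fold 7.97 and 5.90). The strongest Fgf18 peak, in intron 4 of 4 (fold 8.49), was not shared. The strongest peak assigned to Fgf1 (fold 8.61) lay in an intron of the neighbouring Nr3c1. Of 26 other growth factor receptors 21 had a peak in Control and 7 in Myocd-LSD1. Of their 58 Control peaks 4 were shared (6.90%, interval 1.91 to 16.7), beside 22.0% of all Control peaks. Over the whole list, intron, exon and intergenic Control peaks were shared at 14.4%, 8.52% and 18.9%. The part of peak class in the low share of these receptors was not tested. The strongest peaks of Fgfr3 (fold 8.80, intergenic), Fgfrl1 (8.18, exon 2 of 6), Met (7.78, intron 20 of 21) and Flt1 (7.09, intron 1 of 14) were not shared. Met, the receptor for hepatocyte growth factor, had another Control peak that was shared.

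Of 30 adaptors and proximal effectors 22 had a peak in Control and 15 in Myocd-LSD1. Of their 63 Control peaks 14 were shared (22.2%, interval 12.7 to 34.5), close to the 22.0% of all Control peaks. All 4 Control peaks of Grb2, the adaptor that links receptors to Ras activation, were shared, the strongest with a fold of 16.5. That peak was intergenic, and intergenic Control peaks with more than 20 fragments were shared at 63.8%. Fyn, a Src family kinase, had 15 Control peaks, of which 4 were shared, among them one in intron 1 of 12 with a fold of 17.9. The transcription factor genes Stat3 and Stat5b each had 1 of 2 Control peaks shared, and that of Stat3 lay across the start site (fold 9.83 and 11.2). Of 25 Ras, ERK and AKT effectors 16 and 15 had a peak, and 17 of 45 Control peaks were shared (37.8%, 23.8 to 53.5), beside 22.0% of all Control peaks. Of the 16 effector genes with a Control peak 12 had one in a promoter of 3 kb to each side. Over the whole list Control peaks at most 1 kb from a start site were shared at 44.5%. Those at 1 to 2 kb and 2 to 3 kb were shared at 16.0% and 13.7%. The part of promoter peaks in the share of the effectors was not tested. Rps6ka1, for an ERK-activated kinase, and Gsk3b, for a kinase inhibited by AKT, each had 2 shared Control peaks, with top folds of 14.5 and 12.8. Foxo1 had 2 of 4 shared and Elk3 1 of 6.

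Of 26 inhibitors of growth factor signalling 21 had a peak in Control and 14 in Myocd-LSD1. Of their 61 Control peaks 11 were shared (18.0%, 9.36 to 30.0), beside 22.0% of all Control peaks. Sh2b3, for an adaptor that restrains cytokine receptor signalling, had 4 Control peaks (top fold 13.6 on 42 fragments), none of them shared. Dusp6, for an ERK phosphatase, had 5 unshared Control peaks (top fold 12.2 on 24 fragments) and 1 Myocd-LSD1 peak of 2 fragments elsewhere. The top peaks of Sh2b3 and Dusp6 were intergenic, and intergenic Control peaks with more than 20 fragments were shared at 63.8%. The ubiquitin ligase gene Cblb and the Ras pathway inhibitor gene Spred2 each had 1 shared Control peak, of 4 and 7. The shares of the lists were not tested against each other.

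**Figure D4:**
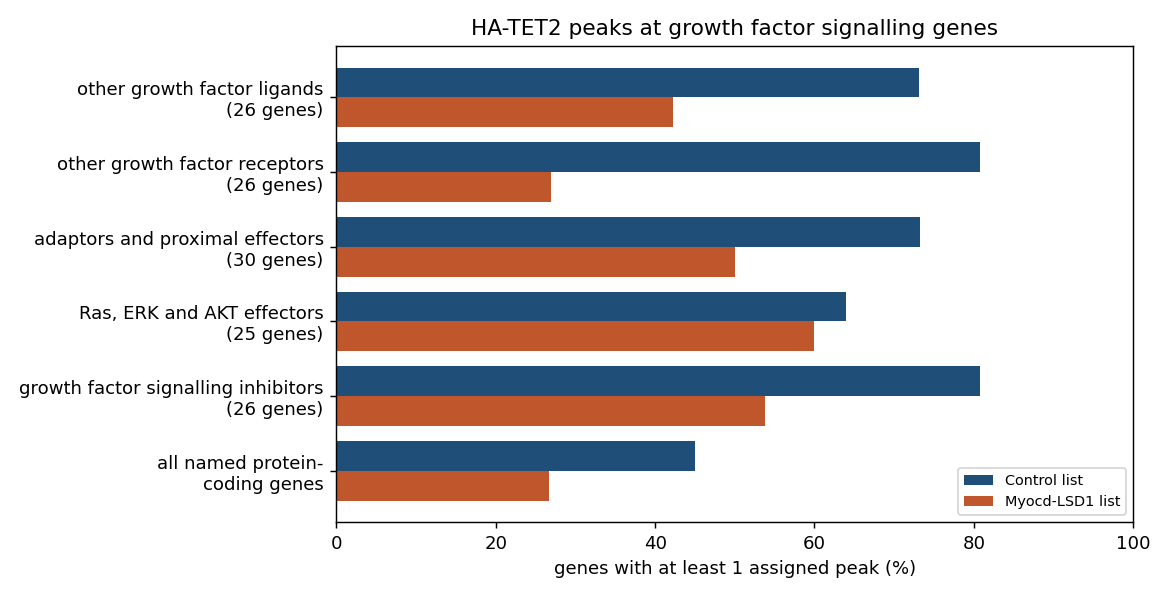
Share of genes with at least 1 assigned peak (%, horizontal axis) in each of 5 lists of growth factor signalling genes and among all named protein-coding genes, for the Control list (blue) and the Myocd-LSD1 list (orange). In Control every list lies between 64.0% and 80.8%, and in Myocd-LSD1 between 26.9% for other receptors and 60.0% for Ras, ERK and AKT effectors, beside 45.0% and 26.7% of all named genes.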

How the data were processed

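CUT&Tag against HA-TET2 was done on 3 samples, which were grouped by title. The submitters' processing notes name Bowtie2, MACS2, deepTools and ChIPseeker and the build rn6. Their versions, their settings and any pooling of the Control reads are not stated in the sources used here. The authors deposited 1 annotated peak list per group. The deposited fold enrichment is a ratio whose reference is not stated. Each peak also has a deposited −log10 p-value. In the authors' deposited table the −log10 q-value starts at 1.32 for Control and at 1.31 for Myocd-LSD1. The score the authors deposited repeats this q-value on another scale and was left out. The header line of each list holds the name of peak 1, which could not be used, and 45 and 23 peak numbers, that one included, are absent. Classes, distances, and exon and intron numbers are the authors' own; on the minus strand these numbers need not run from the start site. Starts are given counted from 1.

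Overlaps and intervals were computed with Python 3.11.15, pandas 2.3.3, numpy 2.4.6 and scipy 1.17.1. Fragment numbers took the fold as (k + 1)/(λ + 1) and the p-value as a Poisson upper tail beyond k, and were solved for 99.9% of the peaks of each list; they are heights at the summit, not read totals, and read totals are unknown. The solving step was tested on values simulated with the same formula, which checks the code and not the formula. Overlaps were tested against bedtools. Gene names were matched to 20950 named protein-coding genes of RefSeq GRCr8; 10893 of 15364 names in the lists matched. The genes, the signalling lists and the rule for named genes (all 10 genes, and up to 4 of each signalling list by highest fold) were chosen with earlier results of these data known. No genome of the build rn6 was used, so peak sequences were not analysed here. Alternatives were a stricter q-value, other overlap rules, other gene assignment and narrower promoters.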

Additional observations from a re-analysis of the deposited data

How the results depend on the processing

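Of 24 alternative values 20 stayed within 1.5 times the reported count. With a reciprocal overlap of 50%, 4 of 12 Myocd-LSD1 peaks (33.3%) and 4 of 32 Control peaks (12.5%) of the 10 genes were shared, beside 38.6% and 14.4% of all peaks; Fgfr1 and the Igf1r intron 1 site then no longer counted. With promoters of 1 kb, Control had 1 gene with a promoter peak (Igf1r) and Myocd-LSD1 2 (Igf1r and Pdgfrb). With promoter peaks alone, 59 signalling genes were in the Control list and 36 in the Myocd-LSD1 list. By nearest gene alone, Pdgfrb had no Control peak and Pdgfd no peak, and 8 and 5 genes had one. With a −log10 q-value of at least 2 in both lists the genes with a peak numbered 9 and 6, and 6 of 29 Control peaks were shared. Narrower promoters, promoter peaks alone and a reciprocal overlap can only keep or lower a count. The Fgfr1 Myocd-LSD1 peak is 215 bp wide against 1108 bp in Control. Those of Igf1r intron 1 are 320 and 158 bp wide against 1123 bp. The Pdgfrb and Pdgfd peaks lost by nearest gene alone were assigned to LOC102555480 and LOC108351647. No paired analysis was possible because each group has 1 peak list, and for the same reason no replicate could be left out. The Myocd-LSD1 peaks of these genes rested on 2 to 9 fragments, and the read totals behind both lists are unknown.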
